A study of Citrus x limon with 9 samples.

Results

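The nitrogen, amino acid and phosphate nutrition genes of lemon buds were taken from the deposited table by the text of their best protein match. A gene was included when this text named nitrate, nitrite, an ammonium transporter, glutamine synthetase, glutamate synthase, asparagine synthetase, an amino acid permease or transporter, arginine decarboxylase, arginase, proline or an inorganic phosphate transporter, and was not proline-rich. Of 22353 genes in the table, 73 matched, and 56 of them had an FPKM (fragments mapped per kilobase of gene, scaled to library size) of 1 or more in at least 3 of the 9 libraries. These 56 genes are described here. Femminello lemon trees of 1 to 2 years, grafted on trifoliate orange, were kept in a greenhouse and passed through a water deficit of 2 weeks. The terminal bud and the 5 buds below it were sampled at stage 1 (1 week before the deficit), stage 2 (1 week after its beginning) and stage 3 (1 week after irrigation was resumed), with 3 libraries at each stage. Each replicate was a group of 3 trees in the study's methods, none of the libraries came from trees kept watered up to the dates of stages 2 and 3, and flower buds could be seen by eye at stage 3, so water supply, date and bud development cannot be told apart. In whole buds, a lower value can stand for fewer cells of a type or for less RNA in each cell, and the values do not separate these.

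Many land plants take up nitrogen mostly as nitrate, which is reduced to nitrite by nitrate reductase in the cytosol and to ammonium by nitrite reductase in the plastid. Glutamine synthetase and glutamate synthase then pass the ammonium to glutamine and glutamate, from which asparagine, proline and the other amino acids are made. Amino acids move between leaves, buds and roots through permeases of the plasma membrane and are stored in the vacuole through a separate set of transporters. Phosphate enters cells through the PHT1 family of inorganic phosphate transporters.

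The 56 genes comprised 18 nitrate or nitrite transporters, 2 reductases, 8 genes with the words glutamine synthetase or glutamate synthase, 2 with asparagine synthetase, 19 amino acid or proline transporters, 4 others with the word proline and 3 inorganic phosphate transporters. Not all of them are nutrition genes by name. The words glutamate synthase also found 4 folylpolyglutamate synthase genes, whose product lengthens the glutamate tail of folates, and the word proline found a proline iminopeptidase, a protein kinase with a proline-alanine-rich stretch and a homolog of a bacterial protein encoded beside a proline synthesis gene. The words arginine decarboxylase and arginase matched no gene. Both ammonium transporter genes lay under the level threshold, as did 9 nitrate or nitrite transporters and 6 amino acid transporters. The values nearest the threshold were those of the proton-coupled amino acid transporter Cs8g01400 on the inner side (0.68 to 1.71 FPKM) and of the cationic amino acid transporter Cs2g09600 on the outer side (stage means of 0.66, 0.91 and 0.53 FPKM at stages 1, 2 and 3). The threshold was reached in the libraries of stage 3 alone by Cs8g12710 and Cs7g03780, so these 2 genes had to be higher there.

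The level of the genes, averaged over the 9 libraries, ranged from 1.05 to 144.6 FPKM with a median of 13.8, against a median of 13.6 for all 17729 genes past the same threshold. The most abundant was an asparagine synthetase (Cs8g20410), which makes the main nitrogen transport amide of many plants, followed by the amino acid permease Cs3g20070 (mean 114.7 FPKM) and the phosphate transporter Cs9g10540 (mean 96.3 FPKM). Together the 56 genes summed to 1611 to 1652 FPKM in the stage 1 libraries, 1365 to 1507 FPKM at stage 2 and 1574 to 1623 FPKM at stage 3, which was 0.215% to 0.264% of all FPKM of a library. The sum was therefore lowest in each of the 3 stage 2 libraries.

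Between 19210 and 20099 genes were above 0 in a library, and replicates correlated at 0.974 to 0.982 (Pearson's r across genes on the log2 scale). Stage 2 replicate 3 stood somewhat apart from its replicates: the SD of the log2 difference over genes above 10 FPKM was 0.265 and 0.286 in its pairs and 0.189 to 0.230 in the other 7. The p-values below measure the spread between these libraries. Of the 12 shoot meristem and organ boundary markers, 7 were above 0 in every library and the others in some, and 9 passed the level threshold. Their sum was 181.2 to 189.0 FPKM at stage 1, 226.0 to 239.1 FPKM at stage 2 and 256.1 to 261.9 FPKM at stage 3, but this order came from the knotted-1-like Cs3g16460 and the SHOOT MERISTEMLESS-like Cs2g02590. The other 10 summed to 47.6 to 54.5 FPKM at stage 1, 29.2 to 34.2 FPKM at stage 2 and 41.6 to 47.1 FPKM at stage 3. Of the 9 tested, the organ boundary genes Cs1g08000 and Cs3g27630 were called lower at stage 2 against stage 1. Both were called higher at stage 3 against stage 2. Such falls and rises were called in 4.66% and 4.92% of all genes. The median log2 fold change of the 9 was -0.48 at stage 2 against stage 1 and -0.14 at stage 3 against stage 1. The flower organ list held 22 genes, mostly of AGAMOUS-like names and not all of them flower genes, and most of its sum came from the AGL19-like Cs5g10050. Without this gene it summed to 43.7 to 48.02 FPKM at stage 1, 41.3 to 50.1 FPKM at stage 2 and 49.99 to 61.04 FPKM at stage 3. Of its 13 tested genes, 1 rose and 1 fell at stage 3 against stage 2, beside 4.92% and 2.54% of all genes. The SEPALLATA 1-like Cs7g11800 rose (log2 fold change 1.30, adjusted p = 0.0039 in limma). The AGL16-like Cs3g16896 fell (-1.03, adjusted p = 0.0091 in limma), after a rise at stage 2 against stage 1 (1.21, adjusted p = 0.0034 in limma). The other tested SEPALLATA 1-like gene, Cs5g12270, had a log2 fold change of 0.28 at stage 3 against stage 2 (adjusted p = 0.22 in limma). The flower words APETALA1, APETALA3 and PISTILLATA and the root word casparian strip matched no gene. The flower word LEAFY matched only the leafy cotyledon 1-like Cs2g01680. The part of these marker genes in the results was not tested.

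**Figure D1:**
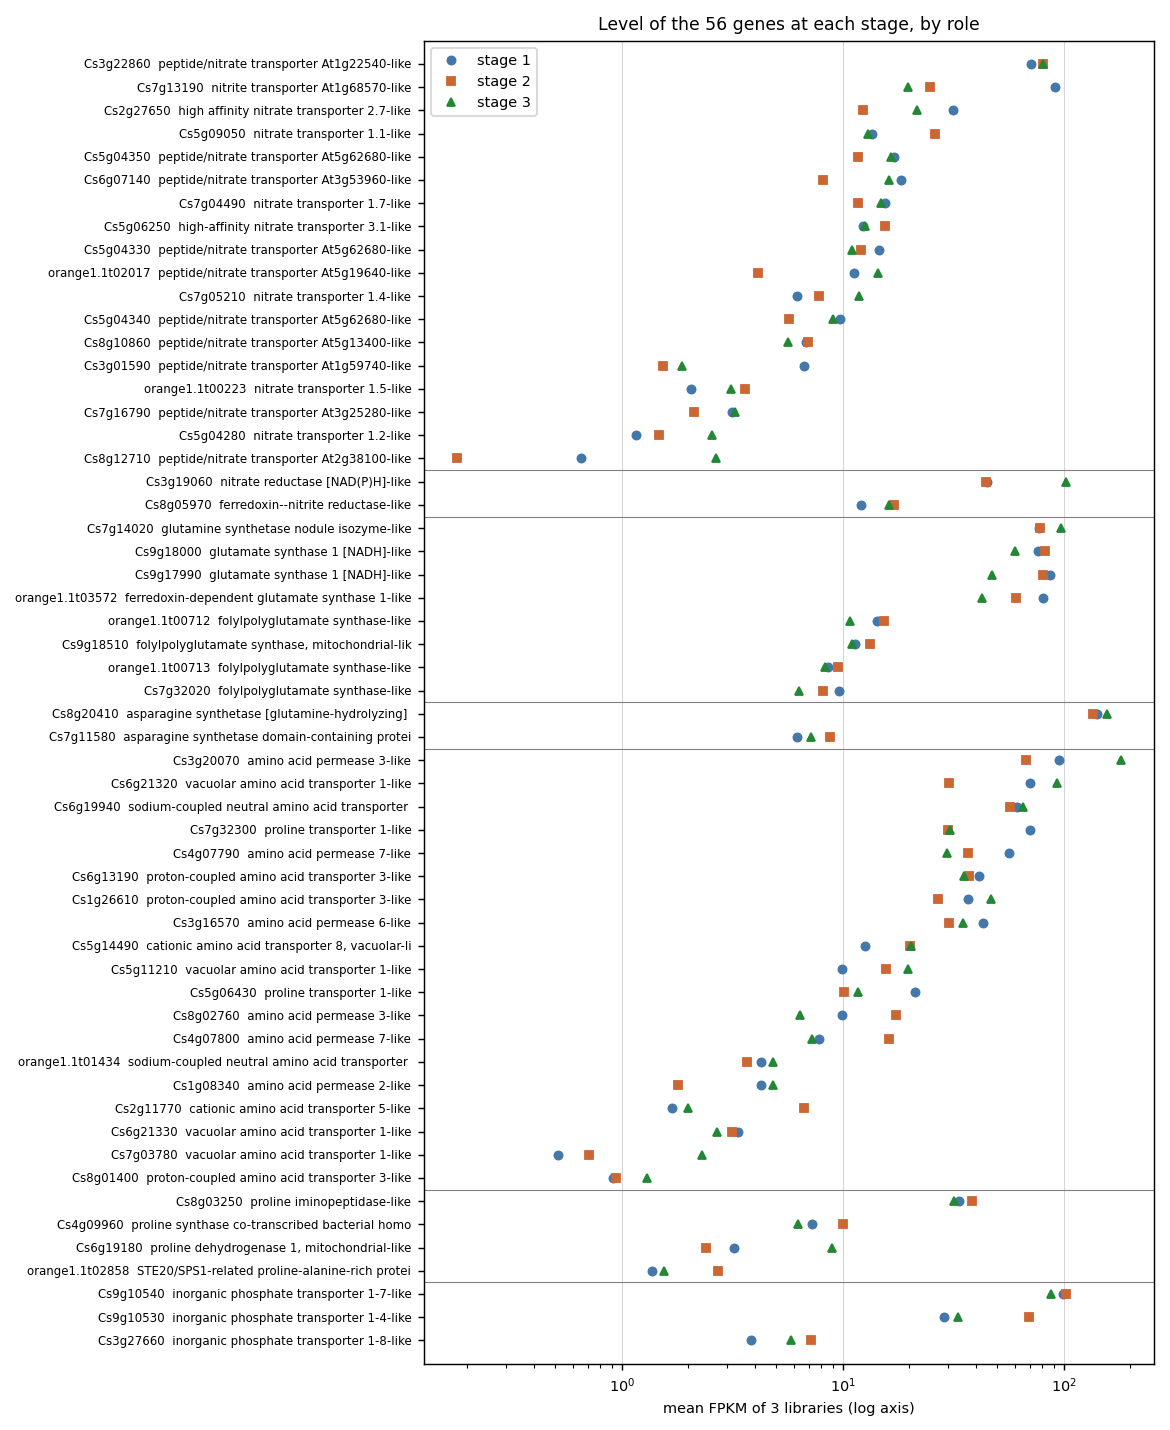
Mean FPKM of 3 libraries at each stage (horizontal log axis) for the 56 genes, which are grouped by role from nitrate transporters at the top to phosphate transporters at the bottom. Mean levels of the members run from 1.05 FPKM upward, and the asparagine synthetase Cs8g20410, with a mean of 144.6 FPKM over all libraries, has the highest mean.

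Stages were compared by fitting log2(FPKM + 1) of all 17729 genes with limma, and a call needed both a log2 fold change of at least 1 in size and a p under 0.05 after Benjamini-Hochberg adjustment. Fold changes on this scale understate those of genes with low values, and every adjusted p below is from this fit. At stage 2 against stage 1, 2 of the 56 genes were called higher (3.57%) and 8 lower (14.3%), beside 3.18% and 4.66% of all genes tested. At stage 3 against stage 2, 7 were called higher (12.5%) and 4 lower (7.14%), beside 4.92% and 2.54% of all genes. At stage 3 against stage 1, 4 were called higher (7.14%) and 3 lower (5.36%), beside 2.69% and 2.24% of all genes. Of these 4, Cs8g12710 and Cs7g03780 had passed the level threshold through stage 3 alone, as had Cs8g12710 among the 7 at stage 3 against stage 2, and with a threshold of 5 FPKM 2 genes were called higher at stage 3 against stage 1. The median log2 fold change of the 56 genes was -0.04, 0.01 and -0.01 in these comparisons, against 0.05, -0.06 and 0.01 for all genes. In total 18 genes were called in at least 1 comparison, 10 of them in 2 and none in all 3, while 38 were called in none. These totals over the comparisons were not counted for all genes, so they only describe the 56. In all 28 calls the 3 libraries of one stage lay apart from the 3 of the other. The conditions of a call favour this, and it was not counted for the calls of all genes, so it only describes these calls. The comparisons share libraries, so that a low value at stage 2 enters both the first and the second.

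Without stage 2 replicate 3, 9 genes rose and 2 fell at stage 3 against stage 2. The 2 lost falls were those of Cs9g10530 and Cs4g07800. The 2 added rises were those of Cs6g07140 and of Cs7g03780, which passed the level threshold through stage 3 alone. Shares of all genes are not given for this setting, so its counts only describe the members. Smaller differences were frequent, in these genes as in all others. By the adjusted p alone, 12 genes were higher and 16 lower at stage 2 against stage 1, beside 21.2% and 17.1% of all genes. At stage 3 against stage 2 the counts were 17 and 14, beside 16.2% and 19.8%, and at stage 3 against stage 1 they were 13 and 14, beside 14.4% and 12.9%. At stage 2 all 3 libraries lay above those of stage 1 in 14 genes and below them in 20, beside 27.8% and 22.2% of all genes. For stage 3 against stage 2 these counts were 20 and 16, beside 19.9% and 26.5%, and for stage 3 against stage 1 they were 19 and 15, beside 22.2% and 21.4%. In 9 genes the stages overlapped in every comparison, a count that was not made for all genes.

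**Figure D2:**
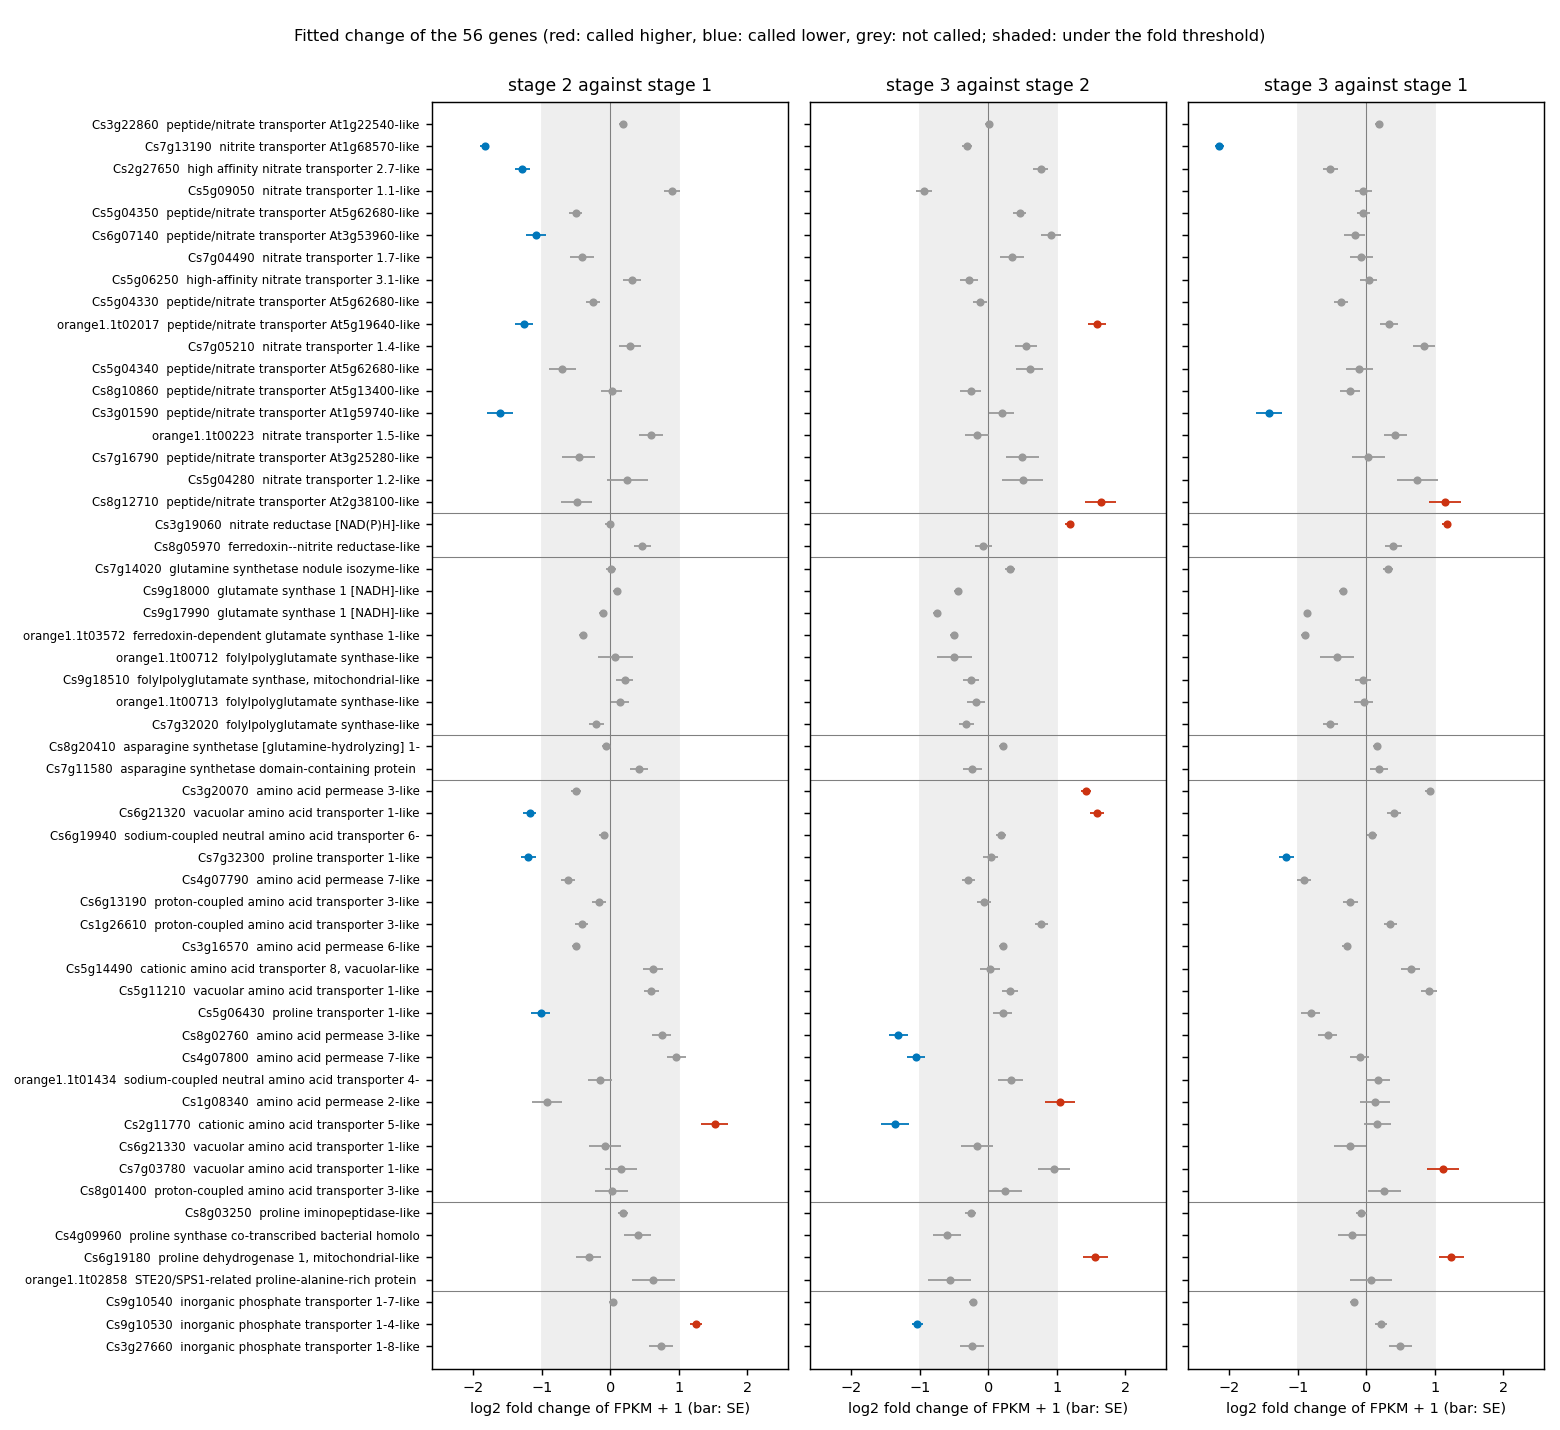
Log2 fold change of FPKM + 1 with its standard error (horizontal axis) for the 56 genes in the same order of roles, in 3 panels for stage 2 against stage 1, stage 3 against stage 2 and stage 3 against stage 1. Points outside the shaded band passed the fold threshold, with called rises in red (2, 7 and 4 genes) and called falls in blue (8, 4 and 3 genes).

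More nitrate and nitrite transporters were called lower than higher under water deficit, as were more of all genes. Of the 18 genes, 5 were called lower at stage 2 against stage 1 and none higher, beside 4.66% and 3.18% of all genes, with a median log2 fold change of -0.44. At stage 3 against stage 2, 2 were called higher and none lower, beside 4.92% and 2.54%, and at stage 3 against stage 1, 1 was higher and 2 lower, beside 2.69% and 2.24%. One called higher in each was Cs8g12710. Their summed FPKM was 332.3 ± 3.34 at stage 1, 236.8 ± 9.35 at stage 2 and 260.6 ± 3.86 at stage 3 (SD, n = 3). Without Cs7g13190, described next, the other 17 summed to 241.3 ± 3.30, 212.0 ± 10.2 and 240.8 ± 3.25 FPKM at stages 1, 2 and 3. Most of these genes belong to the large NRT1/PTR family (named NPF today), whose members carry nitrate, peptides or plant hormones, and 16 of the 18 share the KEGG entry K14638, held by 35 genes past the threshold.

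The largest change was found in the nitrite transporter Cs7g13190, whose best match is like At1g68570 of Arabidopsis. Its values were 91.4, 91.6 and 90.1 FPKM at stage 1, 25.5, 25.1 and 23.8 FPKM at stage 2 and 20.3, 20.6 and 18.5 FPKM at stage 3. The libraries of the 3 stages did not overlap, and most of the drop lay between stage 1 and stage 2. The log2 fold change was -1.83 at stage 2 against stage 1 (adjusted p = 5.1e-09) and -2.15 at stage 3 against stage 1 (adjusted p = 2.0e-09). Between stage 3 and stage 2 it was -0.31, under the fold threshold. At stage 1 Cs7g13190 had the highest level of the nitrate and nitrite transporters, and at stages 2 and 3 this place was held by Cs3g22860 (At1g22540-like), the most abundant over all libraries. Cs3g22860 had 67.7, 72.9 and 72.0 FPKM at stage 1, 78.1, 82.9 and 81.1 FPKM at stage 2 and 84.5, 79.0 and 79.0 FPKM at stage 3, with log2 fold changes of at most 0.19.

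A second gene that did not return was Cs3g01590 (At1g59740-like), with 7.44, 6.04 and 6.63 FPKM at stage 1, 1.08, 2.04 and 1.50 FPKM at stage 2 and 1.91, 2.03 and 1.67 FPKM at stage 3. Its log2 fold change was -1.61 at stage 2 and -1.42 at stage 3, each against stage 1 (adjusted p = 5.0e-05 and 0.00019). The stage 2 and stage 3 libraries of this gene overlapped.

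The other 3 transporters called lower at stage 2 had higher values at stage 3. The high affinity transporter Cs2g27650 is like NRT2.7, which in Arabidopsis loads nitrate into the vacuole of seeds. It had 32.7, 32.8 and 28.8 FPKM at stage 1, 13.7, 12.5 and 10.8 FPKM at stage 2 and 19.1, 22.5 and 23.1 FPKM at stage 3. Its fall at stage 2 against stage 1 was called (log2 fold change -1.29, adjusted p = 4.1e-06), whereas the values of 0.76 at stage 3 against stage 2 and -0.52 at stage 3 against stage 1 were under the fold threshold, so that the stage 3 libraries lay between the others.

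The gene orange1.1t02017 (At5g19640-like) had 11.3, 10.4 and 12.03 FPKM at stage 1, 3.40, 4.30 and 4.74 FPKM at stage 2 and 14.0, 13.8 and 15.3 FPKM at stage 3. It fell at stage 2 (log2 fold change -1.26, adjusted p = 1.8e-05) and rose at stage 3 against stage 2 (1.58, adjusted p = 2.7e-06). For Cs6g07140 (At3g53960-like) the values were 20.2, 16.0 and 18.8 FPKM at stage 1, 7.90, 6.44 and 10.2 FPKM at stage 2 and 17.3, 16.0 and 15.0 FPKM at stage 3. Its fall at stage 2 was called (-1.09, adjusted p = 0.00015). The fall was under the fold threshold when stage 2 replicate 2 was left out (-0.95). The value of 0.92 at stage 3 against stage 2 was under the fold threshold.

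The last called transporter of this role, Cs8g12710 (At2g38100-like), was at 0.54, 0.62 and 0.80 FPKM at stage 1, at 0.18, 0.36 and 0 FPKM at stage 2 and at 3.17, 2.58 and 2.26 FPKM at stage 3. It passed the level threshold through stage 3 alone, so its fold changes of 1.64 at stage 3 against stage 2 and 1.15 at stage 3 against stage 1, on the log2 scale, are a description.

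**Figure D3:**
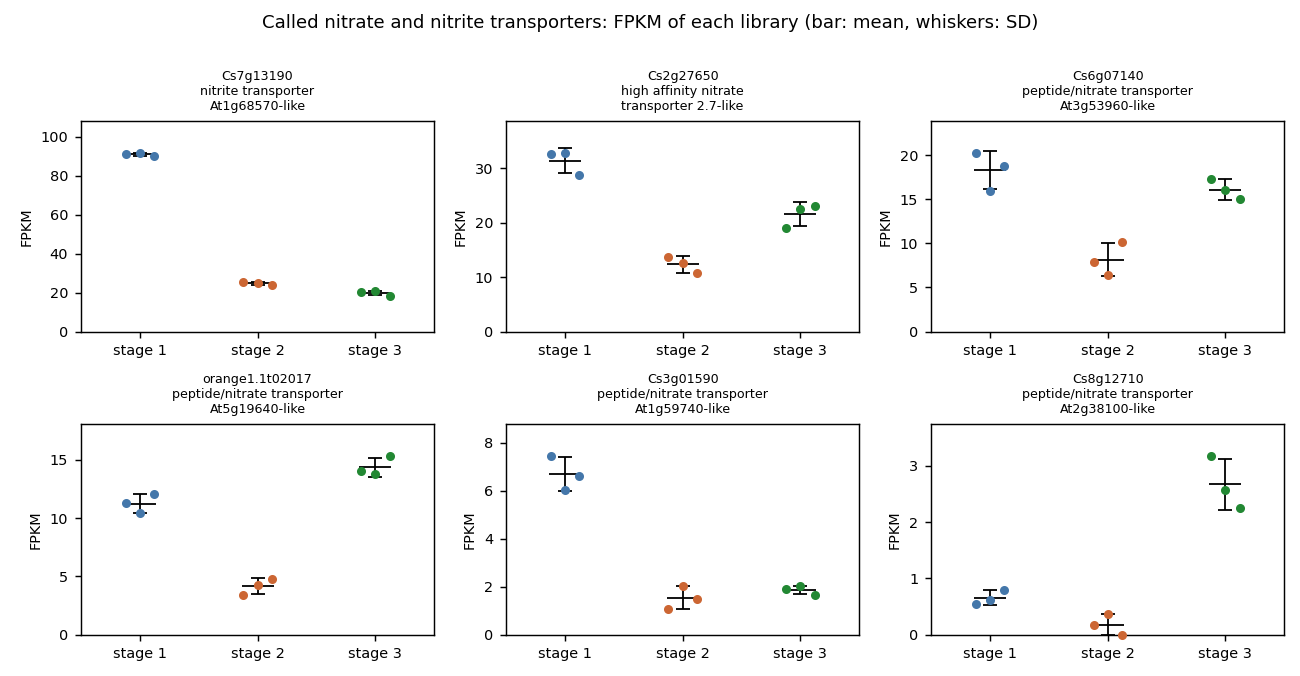
FPKM of every library (points), with the mean (bar) and SD (whiskers, n = 3), at stages 1, 2 and 3 for the 6 called nitrate and nitrite transporters, each panel with its own axis from 0. Cs7g13190 dropped to 24.8 FPKM at stage 2 and stayed low, whereas orange1.1t02017 was at 4.15 FPKM at stage 2 and 14.4 FPKM at stage 3.

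The transporters that were higher at stage 2 did not pass the fold threshold. The NRT1.1-like gene Cs5g09050 corresponds by name to the nitrate transporter and sensor of Arabidopsis. Its values were 12.1, 15.2 and 13.3 FPKM at stage 1, 28.2, 22.0 and 28.1 FPKM at stage 2 and 12.4, 14.1 and 12.5 FPKM at stage 3. All stage 2 libraries lay above all others, with log2 fold changes of 0.90 at stage 2 against stage 1 (adjusted p = 0.00014) and -0.94 at stage 3 against stage 2 (adjusted p = 1.0e-04). The NRT1.5-like orange1.1t00223, named for an Arabidopsis transporter that loads nitrate into the xylem, was at 2.07 ± 0.311, 3.61 ± 0.508 and 3.11 ± 0.264 FPKM at stages 1, 2 and 3 (mean ± SD, n = 3), with a log2 fold change of 0.59 at stage 2 against stage 1 (adjusted p = 0.019). The NRT3.1-like gene Cs5g06250, named for the partner protein of high affinity NRT2 transporters in Arabidopsis, was at 11.1 to 17.2 FPKM in all libraries and was not called.

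A run of 3 genes with successive identifiers, Cs5g04330, Cs5g04340 and Cs5g04350, had best matches like At5g62680, which in Arabidopsis is a transporter of glucosinolates. Their log2 fold changes at stage 2 against stage 1 were -0.25, -0.70 and -0.50, and at stage 3 against stage 2 they were -0.12, 0.60 and 0.46. Cs5g04340 and Cs5g04350 thus had their lowest libraries at stage 2, without overlap, but none of the 3 was called in any comparison. Genes of such similar names may share reads, so their values are uncertain relative to each other.

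Nitrate reductase, the entry step of nitrate assimilation, rose at stage 3 to over 2 times its level at the earlier stages. The gene Cs3g19060 had 48.7, 42.9 and 43.0 FPKM at stage 1, 44.4, 45.6 and 43.2 FPKM at stage 2 and 102.9, 102.8 and 101.1 FPKM at stage 3. The stage 3 libraries lay far above the other 6. The log2 fold change was 1.19 ± 0.06 (SE) at stage 3 against stage 2 (adjusted p = 8.3e-08) and 1.17 ± 0.06 at stage 3 against stage 1 (adjusted p = 1.2e-07), while it was -0.01 ± 0.06 at stage 2 against stage 1 (adjusted p = 0.89).

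The next enzyme, the plastid nitrite reductase Cs8g05970, had 10.1, 14.0 and 12.3 FPKM at stage 1, 18.3, 17.9 and 15.0 FPKM at stage 2 and 15.5, 16.5 and 16.4 FPKM at stage 3. It was not called, with log2 fold changes of 0.46 at stage 2 (adjusted p = 0.012) and 0.39 at stage 3 (adjusted p = 0.037), each against stage 1. Genes of green tissue were also higher at stages 2 and 3: the 8 chlorophyll a-b binding and small Rubisco subunit genes, 7 of them above 0 in every library, summed to 2013 to 2067 FPKM at stage 1, 3172 to 3876 FPKM at stage 2 and 3893 to 4617 FPKM at stage 3. Their order between stages 2 and 3 was not uniform, since without the most abundant, Cs2g03780, the sum was 1754 to 1967 FPKM at stage 2 and 1781 to 1857 FPKM at stage 3, and the median log2 fold change of the 7 tested was -0.27 at stage 3 against stage 2. Their part in the values of plastid enzymes was not tested.

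Glutamate synthase genes were lower at stage 3 by less than the fold threshold. None of the 8 genes with the words glutamine synthetase or glutamate synthase was called. Since 4 of them are folylpolyglutamate synthases and another is the glutamine synthetase, their median does not describe glutamate synthase alone. The median log2 fold change of the 8 was 0.04 at stage 2 against stage 1, -0.39 at stage 3 against stage 2 and -0.39 at stage 3 against stage 1. The ferredoxin-dependent glutamate synthase, orange1.1t03572, forms glutamate in plastids of green tissue. It had 84.7, 77.5 and 79.2 FPKM at stage 1, 57.9, 61.8 and 63.2 FPKM at stage 2 and 42.3, 42.6 and 43.5 FPKM at stage 3. The 3 stages did not overlap, and the log2 fold change at stage 3 against stage 1 was -0.89 (adjusted p = 7.8e-07).

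Both NADH-dependent glutamate synthase genes, Cs9g17990 and Cs9g18000, have the same best match, so they may be copies that share reads or pieces of 1 gene. Cs9g17990 had 86.9, 87.4 and 84.9 FPKM at stage 1, 79.8, 77.5 and 83.3 FPKM at stage 2 and 48.6, 48.3 and 44.6 FPKM at stage 3. The log2 fold change at stage 3 against stage 2 was -0.75 (adjusted p = 1.5e-06), and that of Cs9g18000 was -0.45 (adjusted p = 0.00011). Neither gene was called in any comparison.

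Glutamine synthetase was represented by 1 gene, Cs7g14020, whose best match is an isozyme named for nodules. Its values were 80.6, 72.6 and 78.7 FPKM at stage 1, 73.6, 75.1 and 84.4 FPKM at stage 2 and 89.9, 104.7 and 95.4 FPKM at stage 3. The log2 fold change was 0.01 at stage 2 against stage 1 and 0.31 at stage 3 against stage 2 (adjusted p = 0.0075). At stage 3, then, the glutamine synthetase libraries lay above and the glutamate synthase libraries below those of the earlier stages, each by less than 2-fold, and the difference between the enzymes was not tested.

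Asparagine synthetase Cs8g20410 was not called in any comparison, with 138.4, 140.4 and 145.2 FPKM at stage 1, 126.1, 141.5 and 138.9 FPKM at stage 2 and 158.1, 163.9 and 149.3 FPKM at stage 3. Its log2 fold changes were -0.06 ± 0.06 (SE) at stage 2 against stage 1 and 0.21 ± 0.06 at stage 3 against stage 2 (adjusted p = 0.014). The other gene of this name, Cs7g11580, encodes a protein with an asparagine synthetase domain and was at 5.82 to 10.1 FPKM.

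**Figure D4:**
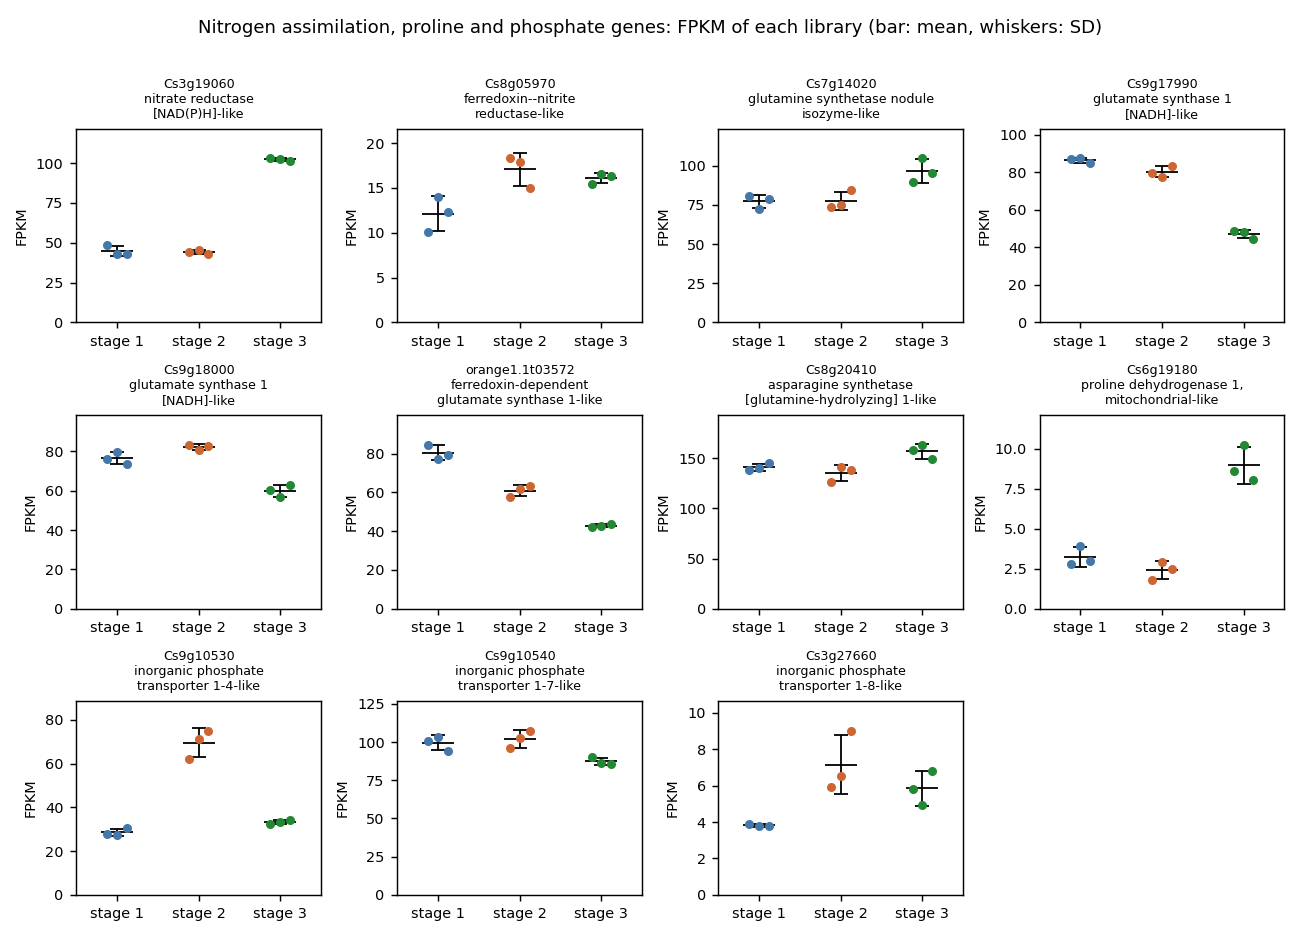
FPKM of every library (points), with the mean (bar) and SD (whiskers, n = 3), at stages 1, 2 and 3 for nitrogen assimilation enzymes, proline dehydrogenase and the 3 phosphate transporters, each panel with its own axis from 0. Nitrate reductase Cs3g19060 was near 44 FPKM at stages 1 and 2 and 102.3 FPKM at stage 3, and the phosphate transporter Cs9g10530 was high at stage 2 alone.

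Among the 19 amino acid and proline transporters, 1 was called higher and 3 lower at stage 2 against stage 1, beside 3.18% and 4.66% of all genes. Between stage 3 and stage 2, 3 were higher and 3 lower at stage 3, beside 4.92% and 2.54%, and at stage 3 against stage 1, 1 (Cs7g03780) was higher and 1 lower, beside 2.69% and 2.24%. The median log2 fold changes were -0.15, 0.21 and 0.12 in these comparisons. The sum of the role was 551.0 ± 19.4 FPKM at stage 1, 412.1 ± 31.5 FPKM at stage 2 and 600.2 ± 13.3 FPKM at stage 3 (SD, n = 3). It was lowest in each stage 2 library, but single genes moved in both directions. The permease Cs3g20070 alone had means of 95.4, 67.1 and 181.7 FPKM at stages 1, 2 and 3. Only with this gene did the sum at stage 3 lie above that at stage 1.

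The proline transporters, which carry proline and related compatible solutes across the plasma membrane, were lower at stages 2 and 3 than at stage 1. Cs7g32300 had 68.0, 78.7 and 63.6 FPKM at stage 1, 27.4, 27.7 and 34.7 FPKM at stage 2 and 29.3, 28.9 and 33.5 FPKM at stage 3. Its log2 fold change was -1.20 at stage 2 (adjusted p = 6.5e-06) and -1.17 at stage 3 (adjusted p = 1.1e-05), each against stage 1. Cs5g06430 had 20.5, 22.6 and 20.6 FPKM at stage 1, 9.16, 8.66 and 12.4 FPKM at stage 2 and 11.1, 13.5 and 10.6 FPKM at stage 3. In both genes the stage 2 and stage 3 libraries overlapped and lay below those of stage 1. The fall of Cs5g06430 at stage 2 was called (-1.02, adjusted p = 0.00015) but lay close to the threshold, with values of -0.93 to -0.97 without stage 1 replicate 2, stage 2 replicate 1 or stage 2 replicate 2, and at stage 3 against stage 1 it was -0.81.

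A transient low at stage 2 was measured in the vacuolar amino acid transporter Cs6g21320, of a family that moves amino acids across the vacuolar membrane. Its values were 67.4, 78.8 and 63.9 FPKM at stage 1, 26.7, 30.2 and 34.1 FPKM at stage 2 and 88.5, 99.0 and 90.9 FPKM at stage 3. It fell at stage 2 against stage 1 (log2 fold change -1.18, adjusted p = 3.4e-06) and rose at stage 3 against stage 2 (1.59, adjusted p = 2.9e-07), and the stage 3 libraries also lay above those of stage 1. The gene with the next identifier, Cs6g21330, was far lower at 1.89 to 4.28 FPKM, with overlapping stages in all comparisons.

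The most abundant transporter of the role, the amino acid permease Cs3g20070 (AAP3-like), had 91.0, 101.2 and 93.9 FPKM at stage 1, 60.7, 71.0 and 69.7 FPKM at stage 2 and 184.9, 182.5 and 177.7 FPKM at stage 3. Amino acid permeases take up amino acids together with protons. The rise at stage 3 against stage 2 was called (log2 fold change 1.43, adjusted p = 3.2e-08). The other log2 fold changes, of -0.50 at stage 2 and 0.92 at stage 3, each against stage 1, passed the adjusted p alone. Cs1g08340 (AAP2-like) had 3.92, 4.28 and 4.55 FPKM at stage 1, 1.23, 2.01 and 2.16 FPKM at stage 2 and 6.52, 4.55 and 3.46 FPKM at stage 3. Its rise at stage 3 against stage 2 was called (1.04, adjusted p = 0.0033) but was 0.89 without stage 2 replicate 1 and 0.85 without stage 3 replicate 1.

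The opposite course was seen in 3 genes. The cationic amino acid transporter Cs2g11770 (CAT5-like), of a family that carries arginine and lysine, had 2.10, 1.29 and 1.65 FPKM at stage 1, 8.08, 5.94 and 6.08 FPKM at stage 2 and 2.09, 2.35 and 1.53 FPKM at stage 3. It rose at stage 2 against stage 1 (log2 fold change 1.52, adjusted p = 0.00011) and fell at stage 3 against stage 2 (-1.36, adjusted p = 0.00027), and stages 1 and 3 overlapped. It was the only one of the 19 transporters called higher at stage 2.

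Cs8g02760, a second AAP3-like permease, had 8.86, 10.9 and 10.1 FPKM at stage 1, 18.03, 19.9 and 14.6 FPKM at stage 2 and 6.43, 7.04 and 5.71 FPKM at stage 3. Its fall at stage 3 against stage 2 was called (-1.32, adjusted p = 2.0e-05), while the value at stage 2 against stage 1 was 0.75. The 2 AAP3-like genes thus ran in opposite directions, with Cs3g20070 lowest and Cs8g02760 highest at stage 2, and the difference between them was not tested.

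The AAP7-like genes Cs4g07790 and Cs4g07800, with neighbouring identifiers, also differed. Cs4g07800 had 7.41, 7.96 and 8.04 FPKM at stage 1, 13.4, 17.1 and 18.4 FPKM at stage 2 and 7.48, 6.35 and 7.91 FPKM at stage 3, and was called lower at stage 3 against stage 2 (-1.06, adjusted p = 0.00011). That call was lost without stage 2 replicate 3 (-0.97) and without stage 3 replicate 2 (-0.98). Cs4g07790 was at 56.6 ± 1.50, 36.9 ± 5.76 and 29.7 ± 1.55 FPKM at stages 1, 2 and 3 (mean ± SD, n = 3), with a log2 fold change of -0.91 at stage 3 against stage 1 (adjusted p = 3.8e-05). The third gene of the run, Cs4g07810, lay under the level threshold.

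The vacuolar transporter Cs7g03780 was at 0.52, 0.51 and 0.51 FPKM at stage 1, at 0.86, 0.34 and 0.94 FPKM at stage 2 and at 2.70, 1.88 and 2.32 FPKM at stage 3, a description only, since it passed the level threshold through stage 3 alone (log2 fold change 1.12 at stage 3 against stage 1). The other 10 transporters were called in no comparison. Of these, Cs5g11210, another vacuolar transporter, was at 9.97 ± 0.985, 15.7 ± 1.92 and 19.6 ± 1.06 FPKM at stages 1, 2 and 3 (mean ± SD, n = 3).

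**Figure D5:**
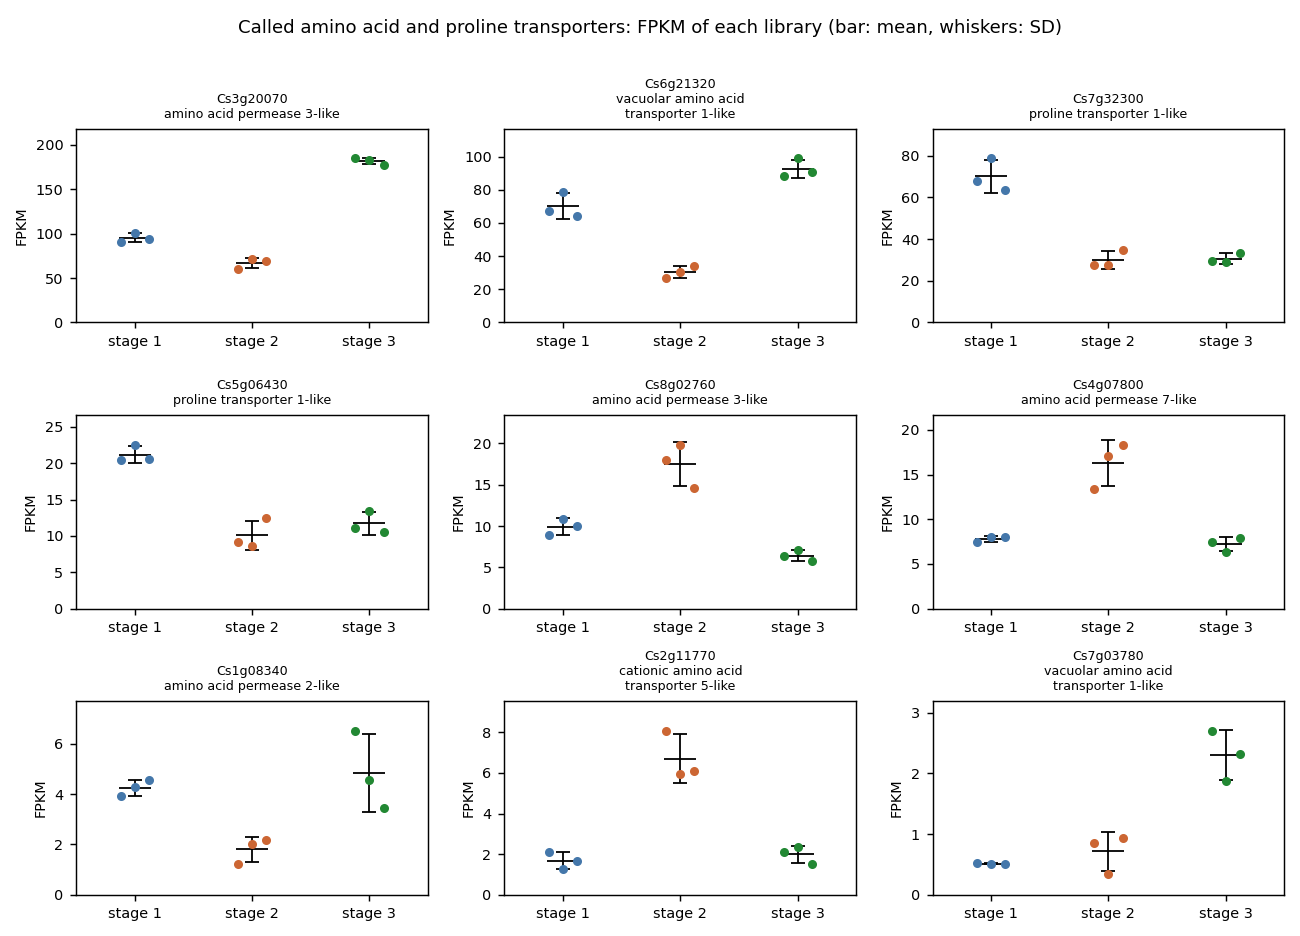
FPKM of every library (points), with the mean (bar) and SD (whiskers, n = 3), at stages 1, 2 and 3 for the 9 called amino acid and proline transporters, each panel with its own axis from 0. The proline transporters Cs7g32300 and Cs5g06430 stay low at stage 3, the permease Cs3g20070 reaches 181.7 FPKM there, and Cs2g11770, Cs8g02760 and Cs4g07800 are highest at stage 2.

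Proline dehydrogenase, the mitochondrial enzyme that begins the breakdown of proline, was represented by Cs6g19180. In Arabidopsis its gene is known to be repressed in dry plants and induced on rewatering. In the lemon buds it had 2.77, 3.92 and 2.99 FPKM at stage 1, 1.81, 2.89 and 2.51 FPKM at stage 2 and 8.59, 10.3 and 8.05 FPKM at stage 3. Stages 1 and 2 overlapped (log2 fold change -0.32, adjusted p = 0.20), and stage 3 was called higher than stage 2 (1.56, adjusted p = 5.0e-05) and than stage 1 (1.24, adjusted p = 0.00038). The other 3 genes with the word proline were called in no comparison, and the most abundant, the iminopeptidase Cs8g03250, which cuts proline from the ends of peptides, was at 30.2 to 39.2 FPKM.

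Of the 3 inorganic phosphate transporters of the PHT1 family, 1 was called, higher at stage 2 against stage 1 and lower at stage 3 against stage 2. Such rises and falls were called in 3.18% and 2.54% of all genes. Cs9g10530 (PHT1-4-like) is named for a transporter of Arabidopsis that takes up phosphate in roots. It had 27.6, 27.5 and 30.5 FPKM at stage 1, 62.1, 71.4 and 75.0 FPKM at stage 2 and 32.3, 33.2 and 34.3 FPKM at stage 3. It rose at stage 2 against stage 1 (log2 fold change 1.25 ± 0.08 SE, adjusted p = 4.2e-07) and fell at stage 3 against stage 2 (-1.04 ± 0.08, adjusted p = 1.8e-06), although the fall was -0.98 without stage 2 replicate 3. At stage 3 against stage 1 the log2 fold change was 0.21 (adjusted p = 0.073).

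Its neighbour by identifier, Cs9g10540 (PHT1-7-like), was the more abundant gene and had 100.8, 103.6 and 94.1 FPKM at stage 1, 96.2, 102.4 and 107.4 FPKM at stage 2 and 90.0, 86.4 and 85.8 FPKM at stage 3. Stages 1 and 2 overlapped (log2 fold change 0.04 ± 0.06 SE), and stage 3 lay below stage 2 by less than the fold threshold (-0.22, adjusted p = 0.014). Cs3g27660 (PHT1-8-like) was at 3.83 ± 0.0737, 7.16 ± 1.64 and 5.85 ± 0.951 FPKM at stages 1, 2 and 3 (mean ± SD, n = 3), with a log2 fold change of 0.74 at stage 2 against stage 1 (adjusted p = 0.0055). The sum of the 3 genes was 128.4 to 134.9 FPKM at stage 1, 164.2 to 191.4 FPKM at stage 2 and 124.5 to 128.1 FPKM at stage 3, with stage 2 above both others.

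Other genes of these pathways were taken by further words. In proline and glutamate metabolism, 1 of 7 genes was called. This gene, orange1.1t01622, encodes a glutamate decarboxylase, which turns glutamate into gamma-aminobutyric acid. It had 66.3, 61.4 and 61.3 FPKM at stage 1, 23.6, 25.2 and 24.5 FPKM at stage 2 and 111.6, 121.5 and 119.5 FPKM at stage 3, a fall (log2 fold change -1.33, adjusted p = 3.3e-08) followed by a rise (2.22, adjusted p = 1.1e-09). Falls at stage 2 against stage 1 were called in 4.66% of all genes and rises at stage 3 against stage 2 in 4.92%. The genes of proline synthesis were not called: the pyrroline-5-carboxylate synthase Cs7g31990 was at 2.25 ± 0.501, 3.02 ± 0.0656 and 2.31 ± 0.633 FPKM and the reductase orange1.1t00774 at 36.3 ± 2.98, 37.9 ± 5.04 and 38.3 ± 4.38 FPKM at stages 1, 2 and 3 (mean ± SD, n = 3).

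In transamination and asparagine breakdown, 1 of 8 genes was called, the asparaginase Cs3g23110, which releases ammonium from asparagine. Its values were 190.7, 175.6 and 184.5 FPKM at stage 1, 53.6, 49.4 and 45.8 FPKM at stage 2 and 121.8, 104.4 and 113.2 FPKM at stage 3. It fell at stage 2 against stage 1 (log2 fold change -1.87, adjusted p = 8.1e-09) and rose at stage 3 against stage 2 (1.17, adjusted p = 2.9e-07), while the asparagine synthetase Cs8g20410 was called in no comparison. Such falls and rises were called in 4.66% and 4.92% of all genes.

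By best match alone, 16 of the genes tested were named as peptide or histidine transporters. Of these, 3 rose and 2 fell at stage 2 against stage 1, beside 3.18% and 4.66% of all genes. The largest rise was in Cs9g09620 (PTR3-A-like), at 2.03 ± 0.204, 8.73 ± 0.336 and 2.32 ± 0.564 FPKM at stages 1, 2 and 3 (mean ± SD, n = 3). Among the falls, Cs8g03980 (At1g52190-like) was at 11.8 ± 1.04, 3.81 ± 0.631 and 2.62 ± 0.611 FPKM, and its log2 fold change at stage 3 against stage 1 was -1.83 (adjusted p = 1.0e-05). The counts were 1 and 2 at stage 3 against stage 2, beside 4.92% and 2.54% of all genes. At stage 3 against stage 1, none rose and 2 fell, beside 2.69% and 2.24%.

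Of 28 genes of phosphate status, 1 rose and none fell at stage 2 against stage 1, beside 3.18% and 4.66% of all genes. The counts were 1 and 1 at stage 3 against stage 2, beside 4.92% and 2.54%, and at stage 3 against stage 1, 2 rose and none fell, beside 2.69% and 2.24%, so that the list was near the background. The purple acid phosphatase orange1.1t02445, of a class of enzymes that free phosphate from organic compounds, was at 1.26 ± 0.373, 5.46 ± 0.708 and 1.70 ± 0.0833 FPKM at stages 1, 2 and 3 (mean ± SD, n = 3). The neighbouring identifier orange1.1t02444 has a best match of the same name and was lowest at stage 2. It was at 1.21 ± 0.34, 0.7 ± 0.24 and 1.28 ± 0.19 FPKM and was called in no comparison. The PHO1-like gene Cs9g09780, named for a phosphate exporter, was at 1.83 ± 0.422, 4.51 ± 0.774 and 4.94 ± 0.945 FPKM and was called at stage 3 against stage 1 (log2 fold change 1.07, adjusted p = 0.0016). The inactive purple acid phosphatase Cs7g11500 was at 7.72, 7.09 and 18.2 FPKM on average at stages 1, 2 and 3 and rose at stage 3 against stage 2 (1.24, adjusted p = 9.7e-05) and against stage 1 (1.15, adjusted p = 0.00023). The genes named for an SPX domain, some of them membrane proteins by name, were not called.

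In the small lists, 2 of 4 polyamine genes were called. The polyamine oxidase Cs7g23670 fell at stage 2 against stage 1 and rose at stage 3 against stage 2 (5.02 ± 0.781, 1.15 ± 0.845 and 4.91 ± 0.393 FPKM at stages 1, 2 and 3, mean ± SD, n = 3), and Cs6g15870 rose at stage 3 against stage 1. Of 5 urea and ureide genes, the allantoinase Cs2g06200, which opens the ring of allantoin, rose at stage 3 against stage 1 (13.6 ± 1.59 FPKM at stage 3, 4.45 ± 1.34 FPKM at stage 1, log2 fold change 1.44, adjusted p = 0.00022). Of all genes, 4.66% were called lower at stage 2 against stage 1 and 4.92% higher at stage 3 against stage 2. The share called higher at stage 3 against stage 1 was 2.69%.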

How the data were processed

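Total RNA of lemon buds was sequenced by the authors in 9 libraries, 3 at each of 3 stages. They filtered reads (FASTX-Toolkit), aligned them to sweet orange (BWA) and deposited FPKM, given to 2 decimals for each gene in each library. Tool versions and the counting program are not given in the sources read. FPKM is relative to library size and gene length and carries no read counts, so no interval from counting can be given. From the ratios of the lowest values, 1 read was worth 0.975 to 1.07 times as much as in stage 1 replicate 2 in 7 libraries, and stage 2 replicate 3 gave no clear peak. The lowest levels are thus the least precise.

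Values were transformed to log2(FPKM + 1). The 17729 genes that reached 1 FPKM in 3 or more libraries were fitted with limma 3.58.1 in R 4.3.3, using a mean for each stage, all 9 libraries together and a trended prior variance. P-values were adjusted by the Benjamini-Hochberg method over all of these genes. The study itself used NOISeq, and limma was fitted here in its place. The fit was tested on simulated data. Figures were drawn with matplotlib 3.10.9 and tables were made with pandas 2.3.3 in Python 3.11.15.

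The members and lists were chosen with earlier results of these data known. By rule, values per library are given for the genes called in at least 1 comparison (at most 10 a role, by size of change), for the most abundant of each role and for those nearest the level threshold, and up to 4 called genes are named for each further list. Genes described without a call were otherwise chosen after their values were seen. Replicates are separate groups of trees in the study, and their numbers were not shown to pair libraries across stages. The alternatives changed the pseudocount to 0.1, removed the filter or set it to 5 FPKM, scaled by medians or quantiles, removed the trend or the fold threshold, fitted only the 6 libraries compared, added a replicate block, required an adjusted p under 0.01 or left out each library.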

Additional observations from a re-analysis of the deposited data

How the results depend on the processing

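Of the 28 calls of single genes, repeated under 19 alternatives where the gene was still tested, 517 of 528 were kept and none turned its direction. The replicate block changed no call: 2 genes rose and 8 fell at stage 2 against stage 1, 7 rose and 4 fell at stage 3 against stage 2, and 4 rose and 3 fell at stage 3 against stage 1, as without it. Same-numbered libraries of different stages had correlated deviations of -0.102 to 0.0315, so the numbers gave no sign of pairing.

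Without the fold threshold, 12 genes were higher and 16 lower at stage 2 against stage 1, 17 higher and 14 lower at stage 3 against stage 2, and 13 higher and 14 lower at stage 3 against stage 1. With the filter of 5 FPKM, 2 genes were called higher at stage 3 against stage 1, because Cs8g12710 and Cs7g03780 were no longer tested. With each library left out in turn, 2 to 3 genes were higher and 6 to 9 lower at stage 2 against stage 1, 6 to 9 higher and 2 to 5 lower at stage 3 against stage 2, and 4 to 5 higher and 3 to 3 lower at stage 3 against stage 1. Shares of all genes are not given for the filter of 5 FPKM or for the libraries left out, so these counts only describe the members. Scaling moved the median of all genes by less than 0.1 on the log2 scale. Depth limits the genes of a few FPKM most.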
